A study of Mus musculus with 6 samples.

Results

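Potassium channel genes were examined in cells sorted from mouse retina to enrich retinal ganglion cells (RGCs), which send the axons of the optic nerve. The genes were the protein-coding rows of the count table whose mouse symbol begins with *Kcn*. There were 94 of them among 55573 rows, and 70 had enough counts to be tested. Adult C57BL/6J mice of both sexes received AAV2-*GFP* or AAV2-*Ezh2* into the vitreous. *Ezh2* encodes the methyltransferase of Polycomb repressive complex PRC2, which trimethylates lysine 27 of histone H3 at repressed genes. Both groups then underwent optic nerve crush, with 2 weeks between injection and crush and 3 days between crush and sorting, and no uninjured or uninjected group was analysed here. Each group had 3 libraries of total RNA. The labels do not say whether replicates came from separate animals, so P values measure the spread between these libraries only. AAV2 also enters retinal cells other than RGCs, and the virus itself does not define the sorted population.

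Potassium channels let potassium ions leave the cell, or enter it through inward rectifiers, and so set the resting potential, end action potentials and limit repetitive firing. The pore is built from subunits of several families. Voltage-gated subunits (*Kcna* to *Kcnd*, *Kcnh* and *Kcnq*) open on depolarization, inward rectifiers (*Kcnj*) and tandem-pore leak subunits (*Kcnk*) act near rest, and calcium- or sodium-activated subunits (*Kcnm*, *Kcnn*, *Kcnt*) respond to ions inside the cell. Auxiliary and electrically silent subunits (*Kcnab*, *Kcne*, *Kcng*, *Kcnip*, *Kcns*, *Kcnv* and others) alter the gating or trafficking of pore subunits. In retina, these channels shape the firing of RGCs and amacrine cells, and Müller glia use them to clear potassium released by neurons.

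*Ezh2* itself was measured at 28.8, 34.6 and 33.0 CPM (reads of a gene relative to all counted reads of its library) in GFP replicates 1 to 3, and at 78.0, 65.3 and 104.8 CPM in Ezh2 replicates 1 to 3. Every Ezh2 library was above every GFP library, as a check of the labels. From its principal component and cluster plots, the study dropped 1 Ezh2 library. Ezh2 replicate 3 was taken to be that library, because plots of the study carry the names of the other 5. The replicate comparison pointed the same way: the chi-square per degree of freedom over genes was 8.13 between Ezh2 replicates 1 and 2, 5.27 to 6.58 within the GFP group, and 55.5 and 62.9 for the pairs with Ezh2 replicate 3. Tests below therefore compared 3 GFP libraries with Ezh2 replicates 1 and 2, and the result from all 6 libraries is given where it differed.

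Total counts ran from 30569933 to 35971192 per library, so that a count of 0 allows up to 3 counts, or 0.0834 to 0.0981 CPM. Markers of RGCs were uneven. *Pou4f1* lay between 0 and 0.6003 CPM and *Pou4f2* between 0 and 0.0932 CPM in the 6 libraries, whereas *Thy1*, whose product was the sorting antigen, lay between 87.2 and 113.8 CPM. *Rbpms*, a pan-RGC marker, lay between 16.4 and 20.8 CPM, *Gap43* between 20.3 and 26.7 CPM, *Nefl* between 9.42 and 15.4 CPM and *Slc17a6* between 4.09 and 8.17 CPM. Müller glia RNA was plentiful, with *Glul* at 9540 to 9900 CPM in the GFP libraries. The labelled cell type was thus detected through some of its markers and barely or not through *Pou4f1* and *Pou4f2*, beside abundant glial RNA, and a *Kcn* value below belongs to the sorted mixture. In such bulk RNA, fewer cells of a type and less RNA per cell cannot be told apart.

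Levels were set by a few genes. On the length-corrected scale (TPM, counts divided by exon length and scaled to an equal total), *Kcnj10*, the inward rectifier through which Müller glia buffer potassium, was at 302.5 ± 17.3 TPM in the GFP libraries (SD, n = 3) and made up 34.4% of all *Kcn* TPM. *Kcnk1*, a tandem-pore leak subunit, was at 150.8 ± 6.43 TPM (SD, n = 3). *Kcnab2*, a cytoplasmic β subunit of *Kcna* channels, followed at 61.2 ± 3.54 TPM, and *Kcne1l*, a small single-pass subunit, at 38.4 ± 2.79 TPM. These 4 genes held 62.8% of the *Kcn* TPM. Further down, *Kcnk6* at 21.96 ± 1.71 TPM and *Kcna5* at 20.7 ± 2.22 TPM did not differ beyond their spread. *Kcn* rows together took 0.130, 0.132 and 0.136% of the counts in the GFP libraries, 0.122 and 0.118% in Ezh2 replicates 1 and 2 and 0.104% in Ezh2 replicate 3.

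The summed TPM was lower in every Ezh2 library. It was 865.6, 859.9 and 915.1 TPM in the GFP libraries, 785.7 and 766.0 TPM in Ezh2 replicates 1 and 2 and 698.0 TPM in Ezh2 replicate 3. Without *Kcnj10* and *Kcnk1*, the sums were 424.3, 421.0 and 435.2 TPM, 417.4 and 411.0 TPM, and 381.6 TPM. The groups still did not overlap, but the distance between them was smaller. These sums were described and not tested.

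**Figure D1:**
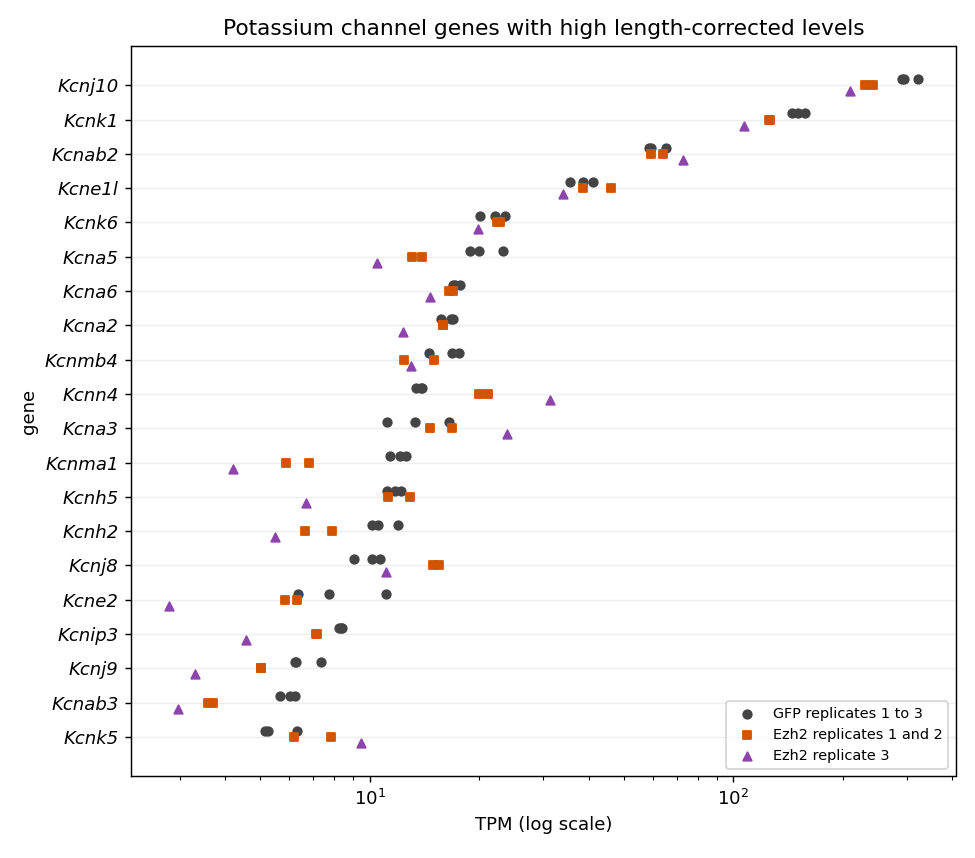
Length-corrected level (TPM, log axis) of 20 *Kcn* genes with high means in the GFP libraries, with 1 point per library. *Kcnj10* and *Kcnk1* lie above all others in every library, and *Kcna5*, *Kcnma1* and *Kcnh2* are lower in the Ezh2 libraries whereas *Kcnn4* is higher.

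Of the 70 tested genes, 13 changed by more than 1.5-fold with an adjusted P under 0.05, which are the thresholds of the study. Of these, 9 were lower and 4 higher in the Ezh2 group. That is 18.6% of the tested members, against 3.8% of all tested genes. Lower calls made up 12.9% of the members and 1.28% of all tested genes, and higher calls 5.71% and 2.52%. An adjusted P under 0.05 at any fold change was reached by 21 members, 15 lower and 6 higher, where the background was 17.8% of genes in all, 7.68% lower and 10.1% higher. The 2 groups did not overlap for 38 of the 70 members, and for 44.9% of all tested genes. The median log2 fold change was -0.05 over the members and -0.01 over all tested genes. At this filter the middle of the family therefore lay close to that of the transcriptome, and the calls came from a minority of members with larger shifts. With a filter at a mean of 50 counts, the median over the members was -0.17. The remaining 49 members did not reach an adjusted P under 0.05, which does not show that they stayed the same.

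With Ezh2 replicate 3 added, 66 members were tested and 8 were called, 7 lower and 1 higher, and 6 of these were also called from 5 libraries. The background then was 2.52% of all tested genes, 0.902% lower and 1.62% higher. The biological coefficient of variation rose from 0.0846 to 0.184, and the median log2 fold change was -0.18 over the members and 0.01 over all tested genes. In Ezh2 replicate 3 the 9 genes called lower were below the GFP range, but so were 38 of the 57 tested members that were not called (66.7%) and 47.1% of all tested genes. Of the 4 genes called higher, 3 were above the GFP range there and *Kcnk13* was within it, where 8 of the 57 members not called (14.0%) and 31.9% of all tested genes were above. *Kcna5* and *Kcnh2* were called from all 6 libraries and not from the 5. Leaving out 1 of the 5 libraries moved the count of lower genes to between 4 (without Ezh2 replicate 2) and 10 (without GFP replicate 1); it was 5 without GFP replicate 3.

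**Figure D2:**
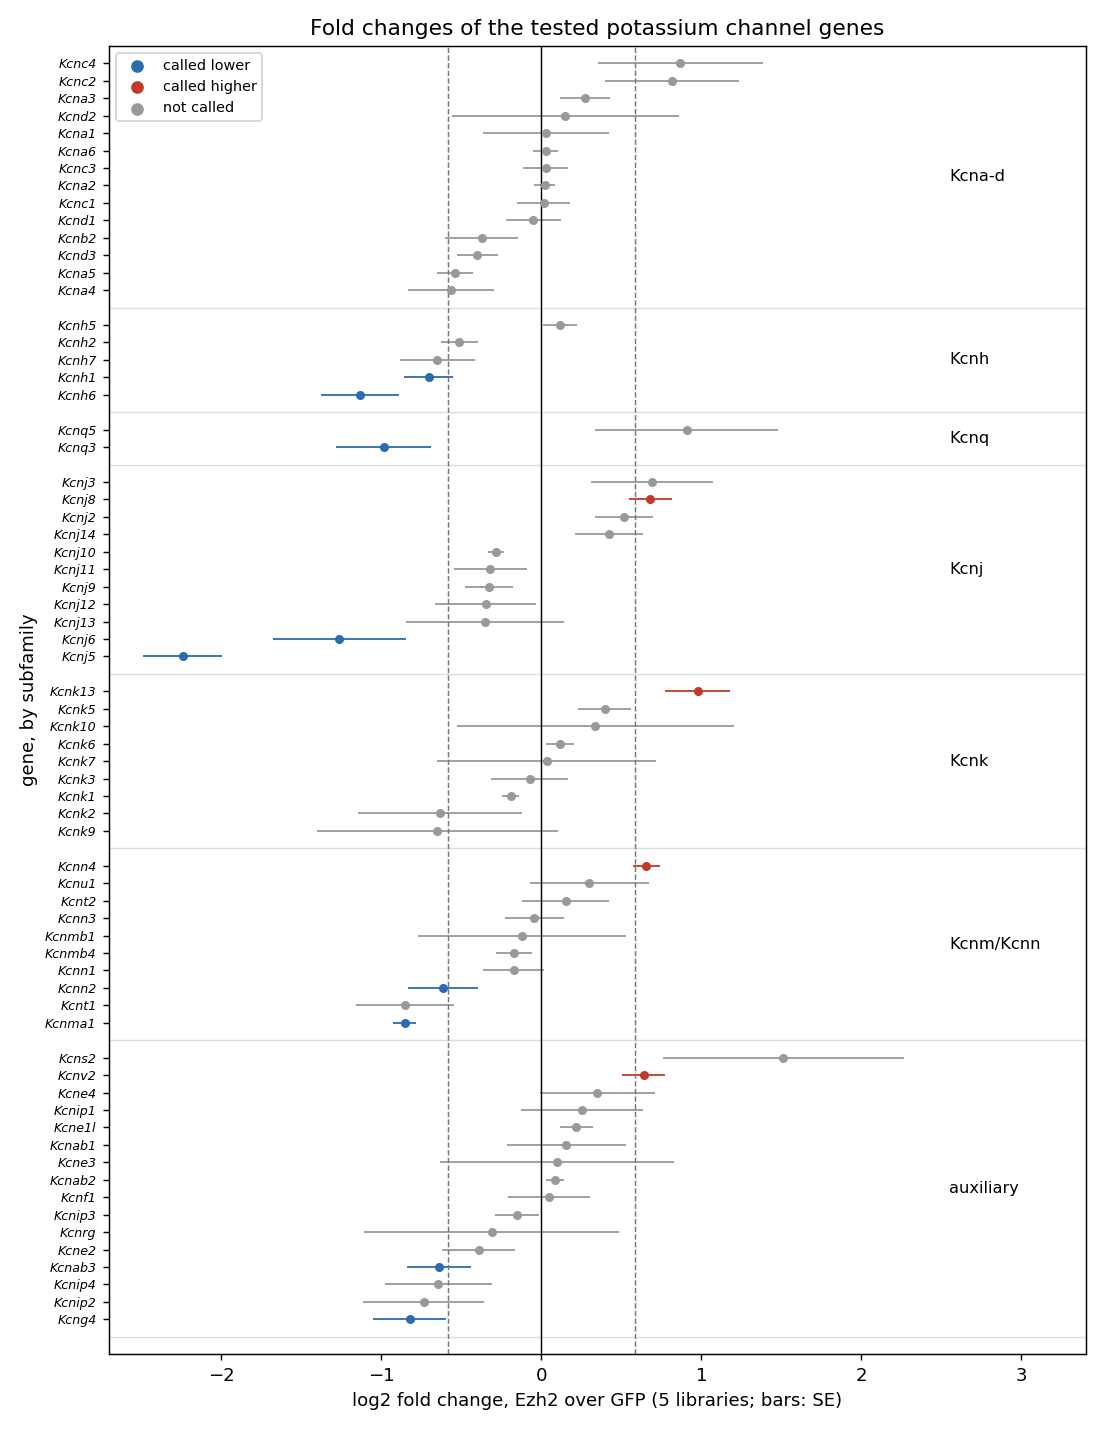
Log2 fold change (Ezh2 over GFP, 5 libraries) with its standard error for 67 of the 70 tested *Kcn* genes, grouped by subfamily; dashed lines mark the 1.5-fold limit. Genes called lower (blue) are spread over *Kcnh*, *Kcnq*, *Kcnj*, *Kcnm*/*Kcnn* and auxiliary genes, and none lies in *Kcna* to *Kcnd*.

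Reference promoters were read for the called genes, since PRC2 is known to be recruited to CpG-rich promoters. Starts and bases are those of RefSeq on mouse build GRCm38.p6, which listed 69 of the 94 members. The 220 bases that end 31 bases before the annotated start are printed 5′ to 3′ on the strand of the gene, with each CpG in capitals. *Kcnj5*, *Kcnh1* and *Kcnj6* represent genes that were lower, and *Kcnj8* and *Kcnk13* genes that were higher in the Ezh2 group.
Kcnj5 (chr9:32344375-32344594, minus strand): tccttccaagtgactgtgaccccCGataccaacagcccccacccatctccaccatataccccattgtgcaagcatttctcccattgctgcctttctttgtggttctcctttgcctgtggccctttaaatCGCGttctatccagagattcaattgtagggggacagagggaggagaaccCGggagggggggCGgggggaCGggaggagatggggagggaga
Kcnh1 (chr1:192190527-192190746, plus strand): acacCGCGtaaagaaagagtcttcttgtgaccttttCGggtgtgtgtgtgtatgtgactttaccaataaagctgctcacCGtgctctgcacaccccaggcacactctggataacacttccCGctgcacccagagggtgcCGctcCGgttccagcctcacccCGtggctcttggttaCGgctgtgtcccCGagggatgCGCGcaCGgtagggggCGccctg
Kcnj6 (chr16:94997727-94997946, minus strand): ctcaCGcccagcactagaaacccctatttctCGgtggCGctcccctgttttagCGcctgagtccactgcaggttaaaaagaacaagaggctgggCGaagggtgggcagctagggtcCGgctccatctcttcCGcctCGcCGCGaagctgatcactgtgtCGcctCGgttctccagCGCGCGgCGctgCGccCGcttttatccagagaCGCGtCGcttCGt
Kcnj8 (chr6:142571645-142571864, minus strand): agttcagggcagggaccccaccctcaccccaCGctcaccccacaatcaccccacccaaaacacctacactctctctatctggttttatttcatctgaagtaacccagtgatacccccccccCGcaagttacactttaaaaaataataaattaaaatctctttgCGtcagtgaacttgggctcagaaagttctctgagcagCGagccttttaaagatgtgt
Kcnk13 (chr12:99964249-99964468, plus strand): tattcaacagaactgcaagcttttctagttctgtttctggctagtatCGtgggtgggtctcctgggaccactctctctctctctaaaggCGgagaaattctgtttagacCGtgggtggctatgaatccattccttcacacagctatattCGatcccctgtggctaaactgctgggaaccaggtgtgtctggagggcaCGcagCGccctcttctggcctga

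The capitals show how unlike these stretches are. The 220 printed bases held 22 CpGs for *Kcnj6*, 14 for *Kcnh1*, 6 for *Kcnj5*, 4 for *Kcnj8* and 6 for *Kcnk13*. Over the whole window of 300 bases, from 250 before to 50 after the start, a promoter was counted as CpG-island-like when GC exceeded 50% and the observed over expected CpG ratio exceeded 0.6. Of the 6 genes called lower that were listed, 4 met this (*Kcnh1*, *Kcnh6*, *Kcnj6* and *Kcnma1*) and 2 did not (*Kcng4* and *Kcnj5*). For *Kcnma1* all 220 bases before the listed start lie inside annotated exons, downstream of the 5′ end of the gene given by GENCODE. None of the 3 listed genes called higher met it, and 10 of 42 tested members that were not called did. The share was 27.5% over all tested members and 63.6% over all tested protein-coding genes, so that *Kcn* promoters as a whole were CpG-poorer. The letters GGGCGG, on either strand, occurred in 4 of the 6 lower genes, 1 of the 3 higher genes, 52.9% of tested members and 62.0% of tested protein-coding genes. *Kcnab3*, *Kcnq3*, *Kcnn2* and *Kcnv2* were not listed. These counts are descriptions of the reference, without a test, and chromatin was not analysed here.

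Voltage-gated subunits of the *Kcna* to *Kcnd* group, which carry delayed rectifier and A-type currents, showed small changes. Of 17 members 15 were tested, and edgeR called 0 of them from 5 libraries; 4 had an unadjusted P under 0.05, 3 an adjusted P under 0.05, and DESeq2 and limma-voom also called 0. *Kcna5*, a delayed rectifier subunit, had 21.2, 17.5 and 17.8 CPM in the GFP libraries, 12.4 and 13.3 CPM in Ezh2 replicates 1 and 2, and 9.59 CPM in Ezh2 replicate 3. The groups did not overlap. Its log2 fold change was -0.54 ± 0.11 (SE; adjusted P = 0.000651), a 1.46-fold difference that falls short of the 1.5-fold limit, and with all 6 libraries it was called lower (-0.65, adjusted P = 0.0337). It was also called without GFP replicate 2 (-0.59, adjusted P = 0.000926) or Ezh2 replicate 2 (-0.61, adjusted P = 0.0021) of the 5. From all 6 libraries, the call was lost without any 1 GFP library (adjusted P = 0.175, 0.114 and 0.145 without replicates 1 to 3). In TPM order *Kcna5* moved from place 7 in the GFP libraries to place 14 in Ezh2 replicates 1 and 2.

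*Kcnd3*, which carries A-type current, had a log2 fold change of -0.40 ± 0.13 (adjusted P = 0.0276). Its values were 15.2, 14.8 and 15.2 CPM in the GFP libraries and 13.4, 9.31 and 10.3 CPM in Ezh2 replicates 1 to 3, so the Ezh2 replicates lay apart from each other. Without Ezh2 replicate 1 it passed the fold limit (-0.67, adjusted P = 0.00133), and without Ezh2 replicate 2 it was -0.17 (adjusted P = 0.558). The adjusted P was also above 0.05 over all 6 libraries (0.131) and without GFP replicate 1 (0.061), 2 (0.0509) or 3 (0.0737). *Kcnc4*, with the largest fold change of the group, rested on 10 to 32 counts per library (0.87 ± 0.52, adjusted P = 0.275). *Kcna2* and *Kcna6*, subunits found along axons, were named after their values were seen. They lay near 0 with log2 fold changes of 0.02 ± 0.07 (adjusted P = 0.872) and 0.03 ± 0.08 (adjusted P = 0.868).

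The *Kcnh* group holds the ether-à-go-go channels and their erg relatives, which damp excitability. Of 8 members 5 were tested, 2 were called lower and 3 had an adjusted P under 0.05. *Kcnh6*, an erg subunit, was at 4.12, 4.71 and 5.08 CPM in the GFP libraries and at 2.58, 1.63 and 2.45 CPM in Ezh2 replicates 1 to 3. Each Ezh2 library was below each GFP library. The difference was 2.20-fold (log2 fold change -1.13 ± 0.24, adjusted P = 0.000973), and it lost the call without Ezh2 replicate 2 (-0.85, adjusted P = 0.0514). *Kcnh1*, the founding ether-à-go-go subunit, was at 10.1, 10.4 and 10.3 CPM against 7.27, 5.28 and 5.50 CPM (-0.70 ± 0.15, adjusted P = 0.00113). It too missed the threshold without Ezh2 replicate 2 (-0.50, adjusted P = 0.066). Both calls held with all 6 libraries, but leaving out any 1 GFP library of those 6 lost them. Without GFP replicates 1 to 3 the adjusted P was 0.133, 0.143 and 0.16 for *Kcnh1*, and 0.124, 0.154 and 0.195 for *Kcnh6*.

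*Kcnh2*, the erg subunit best known from the heart, had 16.3, 15.9 and 17.99 CPM in the GFP libraries and 12.6, 10.7 and 8.54 CPM in Ezh2 replicates 1 to 3. Its log2 fold change of -0.51 ± 0.12 (adjusted P = 0.00154) stayed under the fold limit in 5 libraries and passed it in all 6 (-0.62, adjusted P = 0.0406) and without Ezh2 replicate 1 (-0.62, adjusted P = 0.0019). Without Ezh2 replicate 2 it was -0.41 (adjusted P = 0.0532). From all 6 libraries, *Kcnh2* lost the call without any 1 GFP library (adjusted P = 0.159, 0.144 and 0.211 without replicates 1 to 3). It also lost it there with replicate number as a block (adjusted P = 0.0717). *Kcnh5* had the highest TPM of the group and no such shift. It was at 15.2, 16.0 and 14.1 CPM against 17.2 and 15.2 CPM (0.12 ± 0.11, adjusted P = 0.52), and at 8.70 CPM in Ezh2 replicate 3, which turned the sign over all 6 libraries (-0.11, adjusted P = 0.786). *Kcnh7*, named after its values were seen, missed the threshold on P alone (-0.65 ± 0.24, adjusted P = 0.0527). Of the 5 tested *Kcnh* genes, 4 had a negative fold change and groups that did not overlap, beside 44.9% of all tested genes without overlap.

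*Kcnq* subunits carry the M current, which neurotransmitters switch off to raise excitability. Of 5 members 4 were tested. *Kcnq3*, a neuronal subunit of this current, was at 2.03, 2.97 and 3.74 CPM in the GFP libraries and at 1.49, 1.43 and 1.17 CPM in Ezh2 replicates 1 to 3. The GFP libraries differed among themselves, but none reached down to an Ezh2 library. The difference was 1.98-fold (log2 fold change -0.98 ± 0.30, adjusted P = 0.018). With replicate number as a block in the fit of 5 libraries, *Kcnq3* was not called (-0.75, adjusted P = 0.118). It was not called with all 6 libraries (-1.06, adjusted P = 0.0614), with limma-voom (-0.94, adjusted P = 0.059), or without GFP replicate 3 (-0.77, adjusted P = 0.128), Ezh2 replicate 1 (-1.002, adjusted P = 0.0745) or Ezh2 replicate 2 (-0.97, adjusted P = 0.1).

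Inward rectifiers held both the steepest fall and the largest level. Of 15 members 11 were tested, and 2 were called lower and 1 higher. *Kcnj5* (ENSMUSG00000032034, chromosome 9, 32314707 to 32344350, minus strand) encodes a subunit of the channels that G protein βγ subunits open after inhibitory receptors are engaged. It was at 5.50, 5.47 and 5.24 CPM in GFP replicates 1 to 3, at 1.118 and 1.142 CPM in Ezh2 replicates 1 and 2 and at 0.778 CPM in Ezh2 replicate 3. All Ezh2 libraries were far below all GFP libraries, and the replicates within each group were close together. The difference was 4.73-fold (log2 fold change -2.24 ± 0.24, adjusted P = 5.98e-08). Across all alternatives run, the log2 fold change lay between -2.47 and -2.21 and the adjusted P did not exceed 0.0127. In TPM order *Kcnj5* moved from place 31 to place 51.

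*Kcnj6*, another subunit of the G protein-activated channels, was low, at 27, 57 and 63 counts in the GFP libraries and 16, 28 and 20 counts in Ezh2 replicates 1 to 3. In CPM these were 0.883, 1.80 and 2.05 against 0.497, 0.799 and 0.556. The difference was 2.40-fold (log2 fold change -1.26 ± 0.42, adjusted P = 0.0327). The call ended with all 6 libraries (-1.31, adjusted P = 0.0888), with limma-voom (-1.20, adjusted P = 0.11), and without GFP replicate 2 (-1.16, adjusted P = 0.106), GFP replicate 3 (-1.03, adjusted P = 0.17) or Ezh2 replicate 1 (-0.95, adjusted P = 0.237). The other two members of this G protein-activated group were named after their values were seen. *Kcnj9* had a log2 fold change of -0.33 ± 0.15 (adjusted P = 0.136), and *Kcnj3* one of 0.69 ± 0.38 (adjusted P = 0.237).

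*Kcnj10* was at 502.3, 514.6 and 541.2 CPM in the GFP libraries, 431.6 and 414.8 CPM in Ezh2 replicates 1 and 2 and 363.0 CPM in Ezh2 replicate 3. The groups did not overlap, and the log2 fold change was -0.28 ± 0.05 (adjusted P = 9.57e-05), under the fold limit. Müller glia markers were read beside it. Their list was planned with *Kcnj10* itself among its markers, so its counts and sum may include *Kcnj10*. Of 9 tested, 8 had an adjusted P under 0.05, 6 lower and 2 higher, and 1 was called (*Apoe*, higher). *Glul* was at 9540 to 9900 CPM in the GFP libraries and 6937 and 6898 CPM in Ezh2 replicates 1 and 2, and *Rlbp1* at 1488 to 1535 and at 1186 and 1236 CPM. The summed list overlapped between the GFP libraries and Ezh2 replicates 1 and 2, at 24870 to 25400 CPM against 23760 to 25420 CPM, with 19410 CPM in Ezh2 replicate 3. This sum adds markers that fell and markers that rose, so its overlap does not show that Müller glia RNA stayed the same. The median log2 fold change over the 9 was -0.219, and every gene on the list was detected. The part of these markers in the *Kcnj10* result was not tested.

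Of the members that were higher, *Kcnj8* forms the pore of the ATP-sensitive channel of vascular mural cells. It was at 8.24, 8.82 and 7.16 CPM in the GFP libraries, 12.5 and 13.2 CPM in Ezh2 replicates 1 and 2 and 9.04 CPM in Ezh2 replicate 3. The log2 fold change was 0.68 ± 0.13 (1.60-fold, adjusted P = 0.000364), and over all 6 libraries the adjusted P was 0.0871. *Abcc9*, the sulfonylurea receptor that assembles with it, was also called higher, at 29.96, 25.5 and 25.6 CPM against 42.9 and 43.6 CPM (0.69 ± 0.08, adjusted P = 3.28e-07). In Ezh2 replicate 3 *Abcc9* stood at 33.6 CPM, and it was called from all 6 libraries as well (0.60, adjusted P = 0.0188). Of 6 pericyte markers edgeR called 0; 0 had an unadjusted P under 0.05, and DESeq2 and limma-voom called 0. Their sum was 416.3 to 474.3 CPM in the GFP libraries and 458.7 to 458.9 CPM in Ezh2 replicates 1 and 2. *Kcnj2*, the classical strong rectifier, was at 6.22, 5.66 and 3.97 CPM against 7.27 and 7.71 CPM, with 6.51 CPM in Ezh2 replicate 3 (0.51 ± 0.18, adjusted P = 0.0475). This P did not hold in most alternatives: it was 0.175 over all 6 libraries, 0.308 with replicate number as a block in the fit of 5 libraries, 0.0703 with DESeq2, 0.0529 with limma-voom and 0.056 on library totals alone. It was 0.0674 without GFP replicate 2, 0.228 without GFP replicate 3, 0.0962 without Ezh2 replicate 1 and 0.244 without Ezh2 replicate 2, and without GFP replicate 1 the gene passed the fold limit (0.65, adjusted P = 0.0207).

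**Figure D3:**
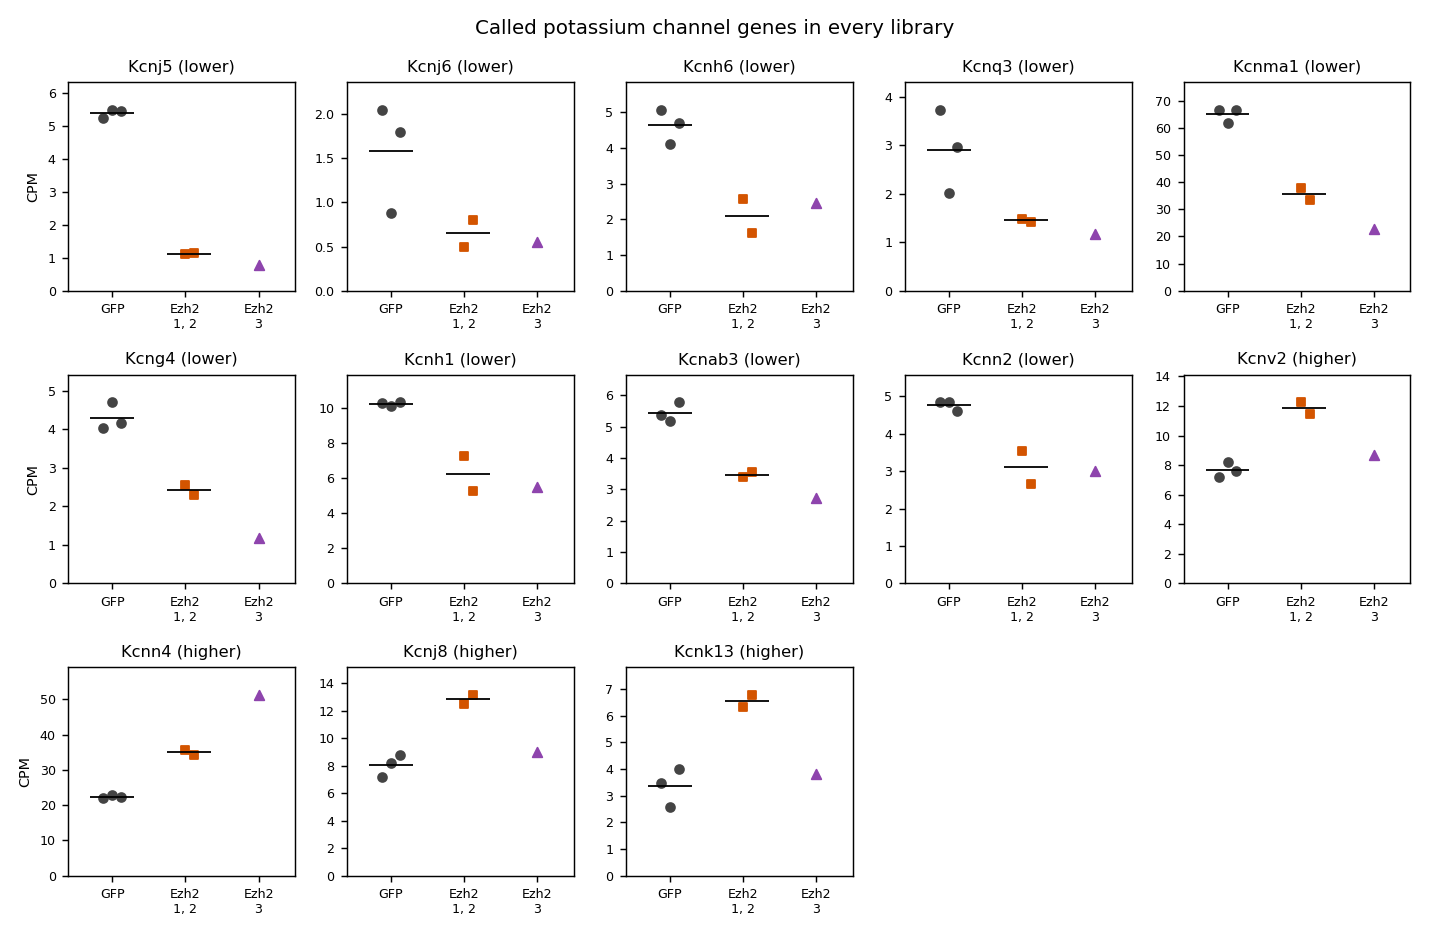
CPM in each library for the 13 called *Kcn* genes, each on its own axis from 0, with horizontal lines at the means of the GFP libraries and of Ezh2 replicates 1 and 2. In the 9 genes called lower, Ezh2 replicate 3 (triangle) is below all GFP libraries, as it is in 38 of the 57 members not called; in *Kcnk13* it lies among them.

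Tandem-pore leak subunits, which stabilize the resting potential, gave 1 call among 9 tested of 14. *Kcnk13*, a subunit that microglia use to set their resting potential, was at 2.58, 4.01 and 3.48 CPM in the GFP libraries and at 6.34 and 6.79 CPM in Ezh2 replicates 1 and 2. Ezh2 replicate 3, at 3.81 CPM, lay within the GFP range. The log2 fold change was 0.98 ± 0.20 (1.97-fold, adjusted P = 0.000741), and over all 6 libraries it was not called (0.78, adjusted P = 0.108). Microglia and macrophage markers moved with it: 7 of 10 had an adjusted P under 0.05, all higher, and 1 was called (*Cd68*). Their sum was 1746 to 1937 CPM in the GFP libraries, 2272 to 2432 CPM in Ezh2 replicates 1 and 2 and 1659 CPM in Ezh2 replicate 3. Their part in the result was not tested. *Kcnk1* was lower by a small step, at 107.3, 104.6 and 109.3 CPM against 92.9 and 93.3 CPM, with 76.4 CPM in Ezh2 replicate 3 (-0.19 ± 0.06, adjusted P = 0.0133). With replicate number as a block in the fit of 5 libraries, *Kcnk1* was at -0.18 (adjusted P = 0.0892). Its adjusted P was 0.0913 over all 6 libraries, 0.0563 without GFP replicate 3 and 0.0656 without Ezh2 replicate 1.

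The group gated by intracellular ions gave 2 lower and 1 higher call among 10 tested of 12. *Kcnma1* (ENSMUSG00000063142, chromosome 14, 23289431 to 24014491, minus strand) encodes the pore of the large-conductance channel that calcium and voltage open together and that repolarizes spikes. It was at 61.7, 66.7 and 66.5 CPM in the GFP libraries, at 38.0 and 33.4 CPM in Ezh2 replicates 1 and 2 and at 22.9 CPM in Ezh2 replicate 3. The groups were well separated, and the log2 fold change of -0.85 ± 0.07 had the smallest adjusted P of all members (1.81-fold, adjusted P = 4.98e-10). With all 6 libraries it was -1.01 (adjusted P = 0.0103), but leaving out any 1 GFP library of those 6 lost the call, with an adjusted P of at most 0.0767. *Kcnmb4*, the β subunit that pairs with it in neurons, was the highest of the group in TPM in the GFP libraries (in Ezh2 replicates 1 and 2 that was *Kcnn4*) and overlapped between groups, at 17.9, 15.7 and 18.1 CPM against 13.6 and 16.7 CPM (-0.17 ± 0.11, adjusted P = 0.334).

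*Kcnn2*, a small-conductance subunit behind the afterhyperpolarization, was at 4.84, 4.61 and 4.85 CPM in the GFP libraries and 3.54, 2.66 and 3.00 CPM in Ezh2 replicates 1 to 3. Its call, at 1.53-fold and an adjusted P of 0.0469 (log2 fold change -0.61 ± 0.22), was the one nearest the limits. That call was lost with replicate number as a block in the fit of 5 libraries (-0.61, adjusted P = 0.109). It was lost without any 1 of the GFP libraries (adjusted P = 0.0749 without replicate 1, 0.0822 without replicate 2 and 0.0996 without replicate 3), without Ezh2 replicate 2 (0.373), without a filter on low counts (0.0607) and with all 6 libraries (0.0975). *Kcnn4*, the intermediate-conductance subunit of lymphocytes and other blood cells, went the opposite way. It was at 22.8, 22.2 and 21.96 CPM against 35.7 and 34.2 CPM, with 51.3 CPM in Ezh2 replicate 3, so that every Ezh2 library was above every GFP library. The log2 fold change was 0.66 ± 0.08 (1.58-fold, adjusted P = 6.41e-07), and it was the 1 member called higher with all 6 libraries (0.90, adjusted P = 0.0225). That call was lost without any 1 GFP library of the 6 (adjusted P = 0.122 without replicate 1, 0.119 without replicate 2 and 0.145 without replicate 3). T cell markers followed the same order of libraries: 8 of 9 had an adjusted P under 0.05, all higher, and 1 was called (*Cd8a*). Their sum was 453.3 to 483.5 CPM in the GFP libraries, 609.6 and 583.2 CPM in Ezh2 replicates 1 and 2 and 978.9 CPM in Ezh2 replicate 3. Their part in the *Kcnn4* result was not tested. *Kcnt1*, a sodium-activated subunit named after its values were seen, missed the threshold narrowly (-0.85 ± 0.31, adjusted P = 0.0523).

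Auxiliary and silent subunits gave 2 lower and 1 higher call among 16 tested of 23. *Kcng4*, a silent subunit that joins other voltage-gated pores, was at 4.71, 4.17 and 4.04 CPM in the GFP libraries and 2.546, 2.28 and 1.17 CPM in Ezh2 replicates 1 to 3. No library of either group fell into the range of the other (-0.82 ± 0.23, 1.77-fold, adjusted P = 0.0103). The call was lost with all 6 libraries (-1.08, adjusted P = 0.056) and without Ezh2 replicate 2 (-0.76, adjusted P = 0.101). *Kcnab3*, a β subunit of *Kcna* channels, was at 5.17, 5.78 and 5.37 CPM against 3.39, 3.54 and 2.72 CPM (-0.64 ± 0.20, 1.56-fold, adjusted P = 0.0229). With replicate number as a block in the fit of 5 libraries, *Kcnab3* was not called (-0.65, adjusted P = 0.0605). It was called with all 6 libraries (-0.72, adjusted P = 0.0494), but not without GFP replicate 2 (adjusted P = 0.0878), GFP replicate 3 (0.0519), Ezh2 replicate 1 (0.127) or Ezh2 replicate 2 (0.0845). Leaving out any 1 GFP library of the 6 also lost the call of *Kcnab3* (adjusted P = 0.161, 0.199 and 0.198 without replicates 1 to 3). *Kcnab2*, the most abundant of this group in TPM, overlapped between groups (0.09 ± 0.06, adjusted P = 0.322).

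*Kcnv2*, a silent subunit of photoreceptors, was at 8.21, 7.61 and 7.19 CPM in the GFP libraries, 12.3 and 11.5 CPM in Ezh2 replicates 1 and 2 and 8.70 CPM in Ezh2 replicate 3. The log2 fold change was 0.64 ± 0.14 (1.56-fold, adjusted P = 0.000839), and over all 6 libraries it was not called (0.53, adjusted P = 0.0824). Photoreceptor markers rose with it. Cone markers were called higher for 7 of 8, with a sum of 29.3 to 29.9 CPM in the GFP libraries, 67.0 and 58.4 CPM in Ezh2 replicates 1 and 2 and 39.5 CPM in Ezh2 replicate 3. Rod markers were called higher for 3 of 8, with sums of 400.6 to 471.2, 713.1 and 756.1, and 422.8 CPM. Their part in the *Kcnv2* result was not tested. *Kcns2* had the largest positive fold change of all members but no support from replicates: Ezh2 replicate 2 held 33 counts and every other library 3 to 10 (1.51 ± 0.75, adjusted P = 0.181). Without Ezh2 replicate 2 its sign turned (-0.32, adjusted P = 0.935).

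Antisense transcripts overlap exons of 4 of the 9 genes called lower (*Kcnma1*, *Kcnj6*, *Kcnn2* and *Kcnab3*) and of 0 of the 4 called higher. Whether reads were counted by strand is not given in the sources used here, so that these 4 values may include reads of the antisense gene. Members that were not called have such overlaps too, among them *Kcnk1*, *Kcnd3* and *Kcnmb4*. The overlap was therefore not particular to lower calls, and the same limit holds for those values. The study drew a list from these libraries that holds *Kcnab3*, *Kcng4*, *Kcnh1*, *Kcnh6*, *Kcnj5*, *Kcnma1* and *Kcnq3*. All 7 were called lower from 5 libraries and 5 of them from all 6, which is not independent evidence because the list was chosen on these samples.

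The 24 members that were not tested had few reads. *Kcnj1*, *Kcnk16*, *Kcnmb3* and *Kcnv1* had 0 counts in all 6 libraries. In the 5 libraries of the test, the highest count of any untested member was 16, and *Kcnh4*, *Kcnh8*, *Kcnj4*, *Kcnj15*, *Kcnj16* and *Kcnq1* were among them. *Kcna7*, *Kcna10*, *Kcne1*, *Kcng1*, *Kcnk15* and *Kcnk18* had at most 3 counts in any library. The others were *Kcng2*, *Kcng3*, *Kcnk4*, *Kcnk12*, *Kcnmb2*, *Kcns1*, *Kcns3* and *Kcnh3*, of which *Kcnh3* had 55 counts in Ezh2 replicate 3. No difference in these genes could be detected at this depth.

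Partner genes of potassium channels were read from a list of 47 (sulfonylurea receptors, anchoring and axonal complex proteins, pacemaker and sodium leak channels, sodium pumps and potassium-chloride cotransporters). The table held 46, and 42 were tested. edgeR called 1 higher, *Abcc9*, and 2 lower, or 7.14% of those tested beside 3.8% of all tested genes. *Nalcn*, the sodium leak channel that opposes potassium leak at rest, was at 7.95, 7.99 and 7.71 CPM in the GFP libraries and 4.53, 3.85 and 3.45 CPM in Ezh2 replicates 1 to 3. The groups stood clear of each other (-0.90 ± 0.17, adjusted P = 0.000244), also with all 6 libraries (-0.96, adjusted P = 0.0127). Leaving out any 1 GFP library of those 6 left 0 partner genes called lower and 0 called higher. *Atp1b1*, the β subunit of the sodium pump, was at 21.6, 18.9 and 17.3 CPM against 12.5 and 10.1 CPM, with 14.3 CPM in Ezh2 replicate 3 (-0.76 ± 0.12, adjusted P = 1.64e-05). With all 6 libraries it was not called (-0.60, adjusted P = 0.0616). At any fold change, 12 partners had an adjusted P under 0.05, 11 lower and 1 higher, where the background was 17.8% of genes in all, 7.68% lower and 10.1% higher. The median log2 fold change over the list was -0.14.

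Neuronal and other marker lists gave the setting in which these values stand. RGC markers were called higher for 3 of 12 tested (*Nefh*, *Tubb3* and *Stmn2*), with a sum of 174.3 to 178.7 CPM in the GFP libraries and 199.6 to 210.0 CPM in Ezh2 replicates 1 and 2. Amacrine markers gave 1 call in each direction among 10 (*Tfap2c* higher, *Tfap2b* lower) and a sum of 546.2 to 565.2 CPM in the GFP libraries against 473.3 to 480.1 CPM in Ezh2 replicates 1 and 2, with 422.7 CPM in Ezh2 replicate 3. Of the 2 tested horizontal cell markers *Calb1* was called lower, at 2.496 to 3.17 CPM against 0.314 to 0.559 CPM. *Pax6* made up most of the amacrine sum, at 441.6 to 449.8 CPM in the GFP libraries, so that this sum mainly describes 1 gene. Over the 10 tested amacrine markers the median log2 fold change was -0.355, and 4 lower and 1 higher had an adjusted P under 0.05. *Thy1*, whose product was the sorting antigen, made up a large part of the RGC sum and of its rise. It was at 87.2 to 92.6 CPM in the GFP libraries, 108.8 and 98.9 CPM in Ezh2 replicates 1 and 2 and 113.8 CPM in Ezh2 replicate 3. The T cell sum was also highest in Ezh2 replicate 3, at 978.9 CPM. Which cells of the sorted mixture held the *Thy1* RNA was not tested, so its rise cannot be assigned to RGCs. The horizontal sum was 3.57 to 4.65 CPM against 1.21 and 1.37 CPM, with 0.917 CPM in Ezh2 replicate 3, and the endothelial sum 3207 to 3375 CPM against 2918 and 2935 CPM, with 2331 CPM. The amacrine, horizontal and endothelial sums were thus lower and the RGC sum higher in the Ezh2 group. The endothelial list showed no common shift: the median log2 fold change of its 6 markers was 0.0, and 1 had an adjusted P under 0.05 (lower). The part of cell makeup in the *Kcn* results was not tested. *Gfap* among 4 tested astrocyte markers was called higher. edgeR, DESeq2 and limma-voom each called 0 of 10 bipolar, 6 endothelial, 5 B cell and 4 pigment epithelium markers, of which 3, 2, 2 and 1 had an unadjusted P under 0.05.

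**Figure D4:**
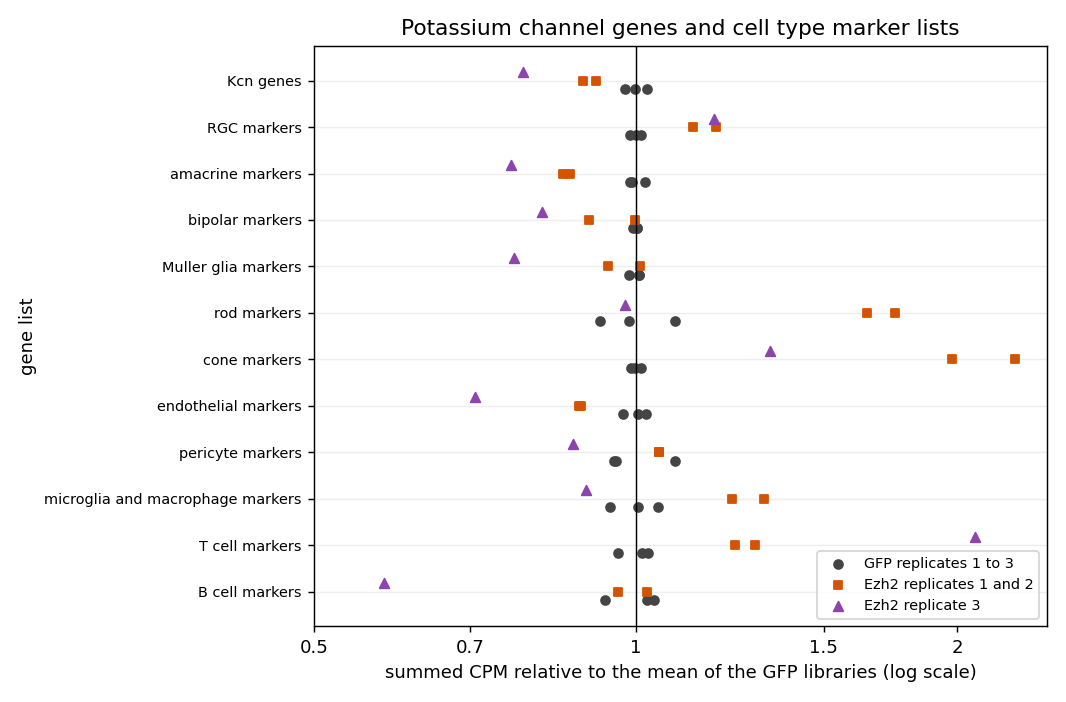
Summed CPM of the *Kcn* genes and of cell type marker lists in each library, divided by the mean of the GFP libraries (log axis, 1 point per library). The *Kcn* sum lies below 1 in all Ezh2 libraries; cone, rod, microglia and T cell sums lie above 1 in Ezh2 replicates 1 and 2, and the T cell sum is highest in Ezh2 replicate 3.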

How the data were processed

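RNA was sequenced from 6 libraries, 3 of mice given AAV2-*GFP* and 3 of mice given AAV2-*Ezh2*, all after optic nerve crush. The authors deposited raw read counts per Ensembl gene, 1 column per library, and 0 columns had no sample. The submitters' processing notes name STAR 2.7.0d and build GRCm38, and the kit is stranded per the labels. The counting program, its annotation and its use of strand are not given in the sources used here. Of 55573 rows, 55480 matched GENCODE M21, which supplied symbols, coordinates and merged exon lengths. Totals were 30569933 to 35971192 counts per library, and intervals or floors cover counting error only.

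CPM was computed on library totals and TPM from exon lengths. Genes were tested in R 4.3.3 with edgeR 4.0.16 (filterByExpr, TMM, two-sided quasi-likelihood F test, group as the only term) on the whole table, and P values were adjusted by Benjamini-Hochberg over all tested genes. Standard errors are the log2 fold change divided by the square root of F. Calls required more than a 1.5-fold change with an adjusted P under 0.05. The main fit held 3 GFP libraries and Ezh2 replicates 1 and 2, since the study excluded 1 Ezh2 library; which one is inferred from its plots. Alternatives took all 6 libraries, omitted each library in turn, or used a replicate block, DESeq2 1.42.0, limma 3.58.1 with voom, other scaling, other filters on low counts (none, or a mean of 50 counts) and no fold limit. The edgeR script was tested on simulated data.

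Genes were named by rule: members called from 5 or 6 libraries, those with an adjusted P under 0.05, the highest TPM and the largest fold change of each of the 7 groups, the study's own *Kcn* list, called partner genes and *Ezh2*. Of the members that this rule names, 3 are not reported here and are left out of the plots of levels and fold changes; they stay in all counts. Other members given with a fold change are marked as named after their values were seen. *Kcne1l* and *Kcnk6* were given for their levels alone, and untested members for their counts. The members, marker lists, partner list and tests were chosen with earlier results of these data known. No pair of libraries in a group agreed within sampling noise. Figures were drawn with matplotlib 3.10.9.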

Additional observations from a re-analysis of the deposited data

Results flagged for a closer look

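*Kcnh3*, an ether-à-go-go subunit of forebrain neurons, was not tested because of its low counts and stood apart in the library left out of the main comparison. It had 55 counts, or 1.53 CPM, in Ezh2 replicate 3, and between 0 and 5 counts in the other libraries. It was singled out because a library outside the comparison held at least 20 counts and more than 2-fold the highest level of the other 5, limits that were set after the values were seen. Exons of *Kcnh3* overlap an antisense gene, *Mcrs1*, and its counts may include reads of that gene. No replicate bears on this value.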

How the results depend on the processing

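From 5 libraries, 4 *Kcn* genes were called higher and 9 lower. All 6 libraries gave 1 higher, and the partner genes then gave 1 lower in place of 2. Without a fold limit, 15 *Kcn* and 11 partner genes were lower. Leaving out 1 of the 5 libraries gave 4 to 5 *Kcn* genes higher and 4 to 10 lower, and 1 to 3 partner genes higher (3 without GFP replicate 1); leaving out 1 of the 6 gave 0 to 1 higher and 1 to 4 lower, and 0 partner genes higher and 0 to 1 lower. The smallest counts followed the removal of a GFP library, which left 1 lower and 0 higher. The median log2 fold change lay between -0.13 and -0.03 without 1 of the 5 libraries and between -0.28 and -0.15 without 1 of the 6. In the 5 libraries with a filter at a mean of 50 counts, it was -0.17. Where 1 Ezh2 library was left, it was assumed to vary like the GFP libraries. Replicate numbers were not taken to pair samples, but this was not settled. A GFP library and the Ezh2 library of equal number had deviations with correlations of -0.00506, -0.0197 and -0.0102. That check included Ezh2 replicate 3, which lay far from the other Ezh2 libraries and could hide a shared shift. It therefore cannot decide whether the numbers pair samples, and no such check covered the 5 libraries alone. With the replicate block in the 5 libraries, 5 *Kcn* genes were higher and 5 lower, in place of 4 and 9. With the block over all 6 libraries 1 was higher and 3 lower, and 1 partner gene was lower. DESeq2, other scaling and other filters left 4 higher and 9 to 10 lower, and limma-voom 4 and 7. Among the genes named, signs turned for *Kcnh5* and *Kcns2*, which were not called. The log2 fold change of *Kcnh5* was -0.11 over all 6 libraries, -0.15 with the block over all 6 (0.07 with the block over 5) and, leaving out 1 of the 6, -0.098, -0.061 and -0.153 without GFP replicates 1 to 3 and -0.283 and -0.186 without Ezh2 replicates 1 and 2; that of *Kcns2* ranged from -0.32 (without Ezh2 replicate 2) to 2.28 (without Ezh2 replicate 1). The cause was not tested. Members left untested for low counts could not be resolved at this depth.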
